A study of Brachypodium distachyon with 45 samples.

Results

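Flowering genes of Brachypodium distachyon, a small wild grass related to wheat and barley, were examined in leaves under drought: VRN1 (Bradi1g08340), VRN2 (Bradi3g10010), FT1 (Bradi1g48830) and FT2 (Bradi2g07070). They were chosen by name and identifier and are 4 of the 33852 loci of the expression table, in which each is a locus of its own. The plants were the genotypes ABR4, ABR8 and KOZ1, grown well-watered at 21 °C with a 16 h photoperiod for 32 days after germination. Leaves were then taken at T0, day 0, from control plants, and at T1, day 4, and T2, day 8, both from plants still watered (control) and from plants no longer watered (drought). This gave 15 groups of 3 libraries, each library from 1 plant, and 45 libraries in all. The growth conditions used here name no cold treatment for any group, and the hour of harvest is not given in the sources used here.

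In temperate grasses these genes link the seasons to the start of flowering. VRN1 encodes a MADS-box transcription factor of the AP1/FUL clade that promotes flowering and rises in prolonged cold (vernalization). FT1 and FT2 encode proteins of the florigen family, and FT1 is made in leaves and moves to the shoot tip. VRN2 encodes a CCT-domain protein that represses flowering, in wheat and barley by holding FT1 down in long days.

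Expression was measured as FPKM, fragments scaled to transcript length and to the mapped fragments of a library, so levels are per length and can be set side by side between genes. The table holds 1 value for each group, pooled over its 3 libraries, with lower and upper 95% confidence limits, and these limits stand for the error of every value given here. Values of single plants were not analysed here, so no SD between plants is given. In whole leaves, fewer cells that express a gene and less RNA per cell cannot be told apart.

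The treatment recorded with the samples differed from the sample names for 15 of them, the 12 ABR8 samples of T1 and T2, where it was reversed, and the 3 KOZ1 T0 samples, and the names were used. Both T1 drought groups of ABR4 and ABR8 held transcripts that the rest of their genotype lacked. There were 78 loci at 0 in the 4 other ABR4 groups and at 5 FPKM or more in all ABR8 controls. All 78 were above 0 in the ABR4 T1 drought group, at a median of 34.9% of the ABR8 control level. The reverse held for all 31 such loci in the ABR8 T1 drought group, at a median of 34% of the ABR4 control level. For the remaining groups of ABR4 and ABR8, the 4 other groups include the T1 drought group, and 0 loci met the condition. Those groups could therefore not be checked in this way. The part of this in the values of the flowering genes was not tested, and the counts of groups above 0, the spread of VRN2 and its likeness to other loci are given with and without these groups. The summed FPKM of the KOZ1 T2 drought group was 479128, against 624700 to 759455 in the other groups.

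The promoters of flowering were at or near 0 in these leaves, whereas the repressor VRN2 was present in every group. FT1 was listed at 0 in all 15 groups, VRN1 did not exceed 0.0306 FPKM and FT2 did not exceed 0.0787 FPKM, while VRN2 lay between 4.69 and 12 FPKM. The lowest lower limit of VRN2 was 1.78 FPKM and the highest upper limit of VRN1 and FT2 was 0.282 FPKM, so the limits of VRN2 did not overlap theirs in any group. No difference of VRN2 between treatments, days or genotypes was called.

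VRN1, the MADS-box promoter of flowering, lies at chr1:5861220-5871104 in the v3.0 assembly. It was above 0 in 4 of the 15 groups. Its level was 0.0225 FPKM in the ABR4 T0 control, 0.0306 FPKM in ABR4 T1 drought, 0.0247 FPKM in the ABR8 T1 control and 0.0219 FPKM in ABR8 T1 drought. It was listed at 0 in all 5 KOZ1 groups and in the other ABR4 and ABR8 groups. All 4 values had a lower limit of 0 and upper limits of at most 0.180 FPKM, so none was separated from 0 by its limits. Without both T1 drought groups, VRN1 remained above 0 in 1 group of ABR4 and 1 group of ABR8. The next gene on the chromosome, Bradi1g08350, which begins 47 bp further on, was at 14.9 to 20.1 FPKM. The neighbour on the other side, Bradi1g08333, was above 0 in 5 groups and at most at 0.129 FPKM.

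FT1, the florigen of the leaf, lies at chr1:47654499-47656205. Its value was 0 in each of the 15 groups, and because the limits of such a value are also 0, the table sets no upper bound on its level. A value of 0 everywhere was found for 4006 loci, 11.8% of the table, and for 651 of 4155 loci of a similar genomic span (15.7%). Among those loci of similar span, introns included, the values above 0 in a group began between 0.00937 and 0.0153 FPKM, and the fifth percentile of these values was between 0.0181 and 0.0271 FPKM. Of its neighbours, Bradi1g48826 was at 2.24 to 6.31 FPKM, and Bradi1g48842 was above 0 in 4 groups and at most at 0.141 FPKM.

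FT2, the florigen paralog, lies at chr2:5412916-5417392 and was above 0 in 7 of the 15 groups. In ABR4 it was 0.0245 FPKM in the T1 control and 0 in the other groups. In ABR8 it was 0.0787 FPKM in the T0 control, the highest value of the gene, and 0.0546 FPKM in T2 drought. In KOZ1 it was above 0 in all groups but the T1 control, at 0.0507 FPKM in the T0 control, 0.0307 FPKM in T1 drought, 0.0332 FPKM in the T2 control and 0.0352 FPKM in T2 drought. All lower limits were 0, and levels above and at 0 occurred under both treatments. Without both T1 drought groups of ABR4 and ABR8, in which FT2 was at 0, the count of groups above 0 did not change. The locus after FT2, which the table merges from Bradi2g07076 and Bradi2g07082, was at 16.3 to 38.9 FPKM, and the locus before it, Bradi2g07060, was at 0 in all groups. FT1, VRN1 and FT2 were thus among the 6986 loci (20.6%) that never exceeded 0.1 FPKM.

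**Figure D1:**
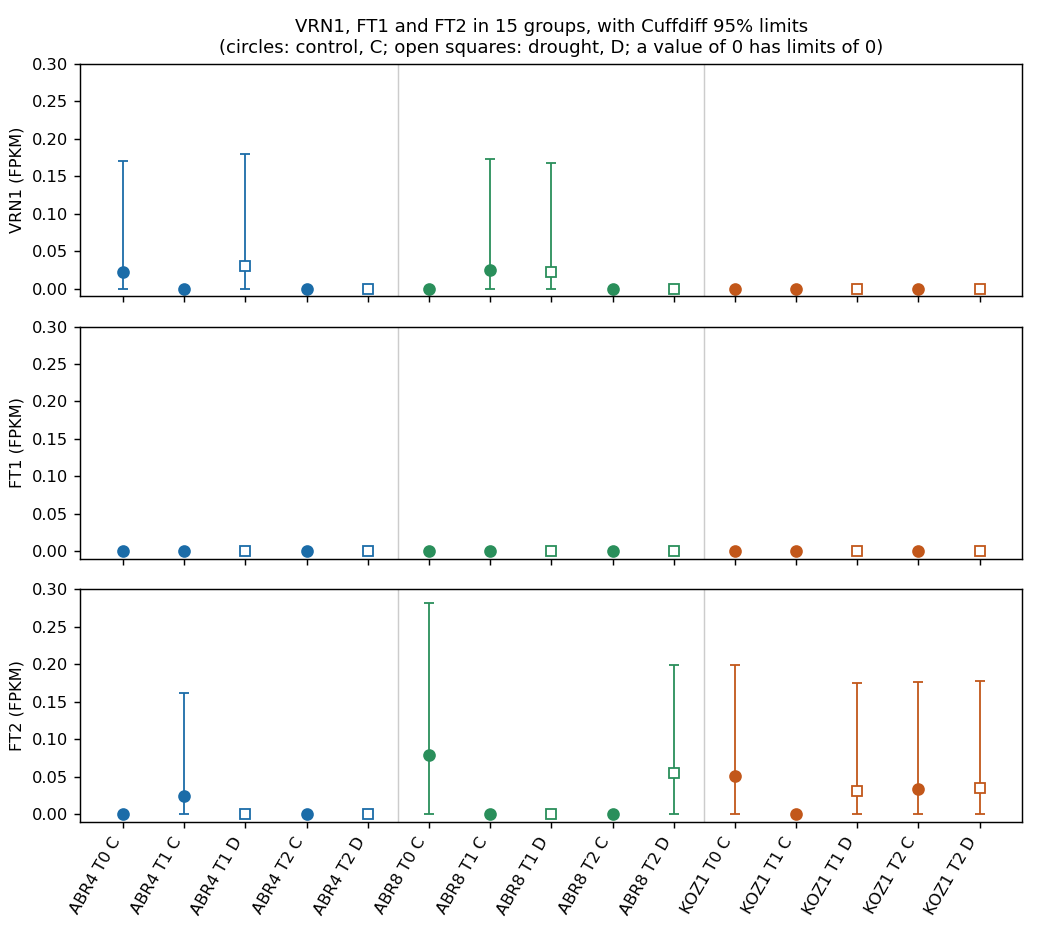
FPKM of VRN1, FT1 and FT2 in the 15 groups, with the authors' 95% limits as bars. The highest point is FT2 in the ABR8 T0 control at 0.0787 FPKM, every lower limit is 0, and FT1 is at 0 in all groups.

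VRN2, the repressor, lies at chr3:8183832-8186049 and was above 0 in all 15 groups. Its level ranked between the 55.2th and the 73.8th percentile of the loci above 0 in a group. In ABR4 it was 12 FPKM in the T0 control (limits 6.84 to 17.1), 6.80 FPKM in the T1 control (3.31 to 10.3), 8.16 FPKM in T1 drought (4.24 to 12.1), 8.92 FPKM in the T2 control (4.65 to 13.2) and 8.93 FPKM in T2 drought (4.72 to 13.1). In ABR8 it was 9.23 FPKM in the T0 control (4.79 to 13.7), 7.91 FPKM in the T1 control (3.87 to 12), 6.51 FPKM in T1 drought (3.1 to 9.91), 8.72 FPKM in the T2 control (4.54 to 12.9) and 8.63 FPKM in T2 drought (4.46 to 12.8). In KOZ1 it was 10.5 FPKM in the T0 control (5.71 to 15.3), 10.3 FPKM in the T1 control (5.48 to 15.1), 9.28 FPKM in T1 drought (4.91 to 13.6), 9.67 FPKM in the T2 control (5.18 to 14.2) and 4.69 FPKM in T2 drought (1.78 to 7.60). The KOZ1 T2 drought group was thus the lowest and the ABR4 T0 control the highest.

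**Figure D2:**
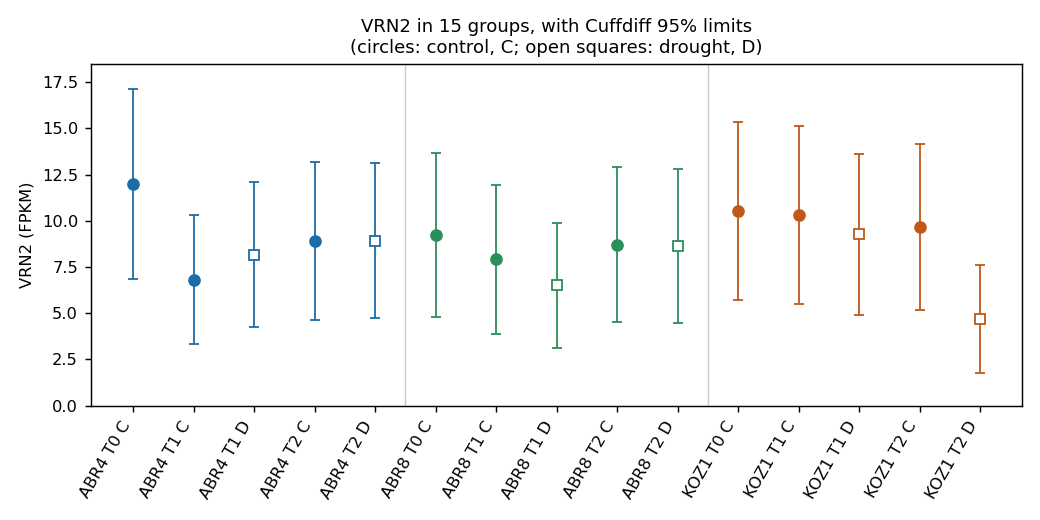
FPKM of VRN2 in the 15 groups, with the authors' 95% limits as bars. The values lie between 4.69 FPKM in KOZ1 T2 drought and 12 FPKM in the ABR4 T0 control, and the limits of every pair of groups overlap.

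Neighbours in the order of the VRN2 levels were not resolved by the data. Limits overlapped in all 105 pairs of groups, which is not a test of a difference. No neighbours in the order differed beyond their error in a z-test on ln FPKM. Neighbours are the closest pairs by construction, so this does not show that groups far apart in the order are alike. The highest and the lowest group were not tested against each other. The T0 control was the highest of the 3 controls in each genotype. The highest level was 2.56 times the lowest, and 1.84 times without the KOZ1 T2 drought group. The SD of log2(FPKM + 0.1) over the 15 groups was 0.32. The median was 0.29 for 2198 loci of similar level, VRN2 among them, which places VRN2 at the 55.1th percentile of their spread. Without the KOZ1 T2 drought group the SD was 0.23, at the 43.8th percentile, and without the T1 drought groups of ABR4 and ABR8 it was 0.33, at the 53.5th percentile. The variation of VRN2 between groups was thus close to that of other genes at its level.

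Each gene was then compared between drought and control, between days in the controls and between genotypes in the controls, in 27 comparisons. A call needed a change of at least 2-fold and a Benjamini-Hochberg adjusted p of at most 0.05 in the z-test over all loci of the comparison. Of the 108 possible tests of the 4 genes 61 could be made, since a gene at 0 in both groups cannot be tested. These were 27 tests of VRN2, 21 of FT2, 13 of VRN1 and 0 of FT1. None was called. Of the 27 tests of VRN2, 0 reached an unadjusted p of 0.05, which 0.993% to 21.6% of all loci tested did in these comparisons. The 34 tests of VRN1 and FT2 rest on values with an SE of 132% to 341% of their level, and nothing can be read from their outcome.

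No drought difference of VRN2 was called at either time in any genotype. In drought, 6 tests of VRN2, 4 of FT2, 2 of VRN1 and 0 of FT1 could be made, and none was called. The share of all loci tested that was called was 0.234% at T1 and 0.0698% at T2 in ABR4. It was 0.037% and 0.0382% in ABR8, and 0.459% and 8.34% in KOZ1. At T1 the drought level of VRN2 was 1.20 times the control in ABR4 (95% interval 0.594 to 2.42), 0.822 times in ABR8 (0.396 to 1.71) and 0.901 times in KOZ1 (0.464 to 1.75). Both T1 values of ABR4 and ABR8 rest on the drought groups with transcripts of the other genotype. At T2, without these T1 drought groups, the log2 difference was 0.0015 in ABR4 (95% interval -0.97 to 0.97) and -0.015 in ABR8 (-0.997 to 0.968). Differences within these intervals were not detectable with the errors of the table.

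The largest difference of VRN2 under drought was in KOZ1 at T2, where the level was 9.67 FPKM in the control and 4.69 FPKM in drought. The log2 difference was -1.04 with an SE of 0.57, a ratio of 0.485 (95% interval 0.223 to 1.05). The interval includes 1, and the difference was not called. The median log2 difference of loci at 1 FPKM or more was 0.080 in this comparison, and 12.6% of them lay below VRN2. This is also the comparison with the low summed FPKM. The scaling of the groups moved the value. After scaling all groups to the same sum the VRN2 difference was -0.40 (95% interval -1.52 to 0.72), with the median locus at 0.74. After scaling to a common median it was -1.16 (-2.28 to -0.043), an interval without 0, and it was not called after adjustment over all loci.

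The drought difference of VRN2 was also compared between genotypes and between times, in 9 tests with 0 past an adjusted p of 0.05, where the share of all loci past it was 0.0976%, 0.151% and 0.301% for ABR8 against ABR4, KOZ1 against ABR4 and ABR8 against KOZ1 at T1, 0.0634%, 2.23% and 4.95% for the same pairs at T2, and 0.0132% in ABR4, 0.0213% in ABR8 and 4.78% in KOZ1 for T2 against T1. At T2 the log2 difference in KOZ1 minus that in ABR4 was -1.05 (95% interval -2.53 to 0.43), and that in ABR8 minus that in KOZ1 was 1.03 (-0.46 to 2.52). Within KOZ1, T2 minus T1 gave -0.89 (-2.37 to 0.58). The difference in KOZ1 at T2 was therefore not shown to be particular to that genotype or time.

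**Figure D3:**
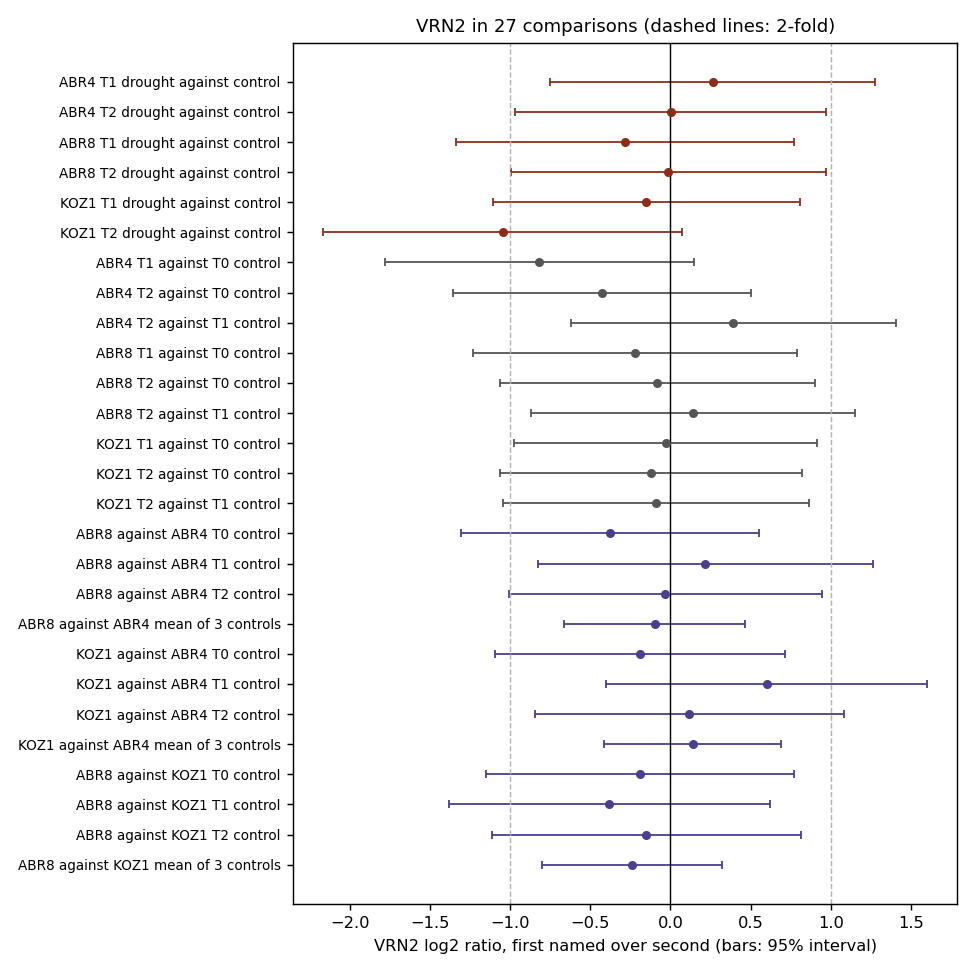
Log2 ratio of VRN2 levels, the first named group over the second, with 95% intervals as bars, for drought (red), days (grey) and genotypes (blue) in 27 comparisons. Every interval includes 0, and the lowest value is KOZ1 T2 drought against control at -1.04.

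Across the days in well-watered plants, 9 tests of VRN2, 7 of FT2, 4 of VRN1 and 0 of FT1 could be made. None was called. The share of all loci called was 0.285%, 1.25% and 0.0387% in ABR4 for T1 against T0, T2 against T0 and T2 against T1. It was 0.257%, 2.45% and 0.272% in ABR8 and 1.21%, 1.93% and 0.0925% in KOZ1 for the same pairs of days. VRN2 in ABR4 had the largest difference, from 12 FPKM at T0 to 6.80 FPKM at T1, a ratio of 0.567 (95% interval 0.291 to 1.11). At T2 it was 8.92 FPKM, a log2 difference of -0.43 from T0. In ABR8 the log2 differences from T0 were -0.22 at T1 and -0.08 at T2. In KOZ1 they were -0.03 and -0.12. No interval of these differences excluded 0.

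Between genotypes in the controls, 12 tests of VRN2, 10 of FT2, 7 of VRN1 and 0 of FT1 could be made. None was called. The share of all loci called at T0, T1 and T2 and for the mean of the 3 controls was 4.06%, 3.52%, 2.5% and 9.63% for ABR8 against ABR4, 2.08%, 2.21%, 1.64% and 5.46% for KOZ1 against ABR4, and 1.97%, 4.08%, 2.97% and 8.69% for ABR8 against KOZ1. The mean level of VRN2 over the 3 controls was 9.24 FPKM in ABR4, 8.62 FPKM in ABR8 and 10.2 FPKM in KOZ1. ABR8 was at 0.933 times ABR4 (95% interval 0.630 to 1.38), KOZ1 at 1.10 times ABR4 (0.751 to 1.61) and ABR8 at 0.848 times KOZ1 (0.574 to 1.25). These comparisons share groups. At single times the largest ratio was KOZ1 to ABR4 at T1, 1.51 (0.756 to 3.03). With these errors the means of 3 controls had to differ by 1.46 to 1.48 times to reach an unadjusted p of 0.05.

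Other MADS-box genes were read from the RefSeq names, a list taken after the files were seen. Of 8 genes, 6 matched a single locus, and 5 of these never reached 1 FPKM, as VRN1 did not. VRT-2 and the gene with the synonym AGL13 could not be assigned to 1 locus. Their loci were at 8.37 to 55 FPKM and at 11.2 to 28.4 FPKM. A further locus of VRT-2 did not exceed 0.242 FPKM. In each group, 16383 to 17423 of the 33852 loci were at 1 FPKM or more. This is a count per group, and the loci under 1 FPKM in all 15 groups were not counted. The AP1/FUL gene FUL2a (Bradi1g59250), of the same clade as VRN1, was above 0 in 13 groups but at most at 0.131 FPKM. SEP3 (Bradi4g34680) and AGL6 (Bradi3g51800), named after regulators of floral organs, did not exceed 0.0253 FPKM and 0.0247 FPKM. MADS4 (Bradi2g25090) was at 0 in all groups, and MADS2 (Bradi4g40350) reached 0.0279 FPKM. The exception among the 6 matched genes was the gene with the synonym AGL11 (Bradi3g58220), at 24.0 to 31.4 FPKM in all groups. FUL2a and AGL11 could be tested in all 27 comparisons, and 0 of these tests gave a call, with the shares of all loci called as given above for each comparison. AGL6, SEP3 and MADS2 could be tested in 7 comparisons each, at these low values and also with no call, and MADS4 in 0.

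The loci whose levels most resembled VRN2 over the 15 groups were taken by Pearson's r of log2(FPKM + 0.1) among 15474 single-gene loci at a mean of 1 FPKM or more. They were Bradi1g29910 (r = 0.918), Bradi3g55060 (r = 0.882) and Bradi1g43310 (r = 0.872). All were lower in KOZ1 T2 drought than in its control, at 9.77 and 3.1 FPKM in the control and drought for Bradi1g29910, 13.9 and 9.60 FPKM for Bradi3g55060, and 9.29 and 1.91 FPKM for Bradi1g43310. Without that group r was 0.820, 0.766 and 0.724, and without the T1 drought groups of ABR4 and ABR8 it was 0.918, 0.953 and 0.878. The groups share genotypes and the loci were picked for their r, so no p is given. The pick used the same 15 groups, in which VRN2 was lowest in KOZ1 T2 drought. The lower levels of the 3 loci there are therefore part of the pick and not a separate result.

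**Figure D4:**
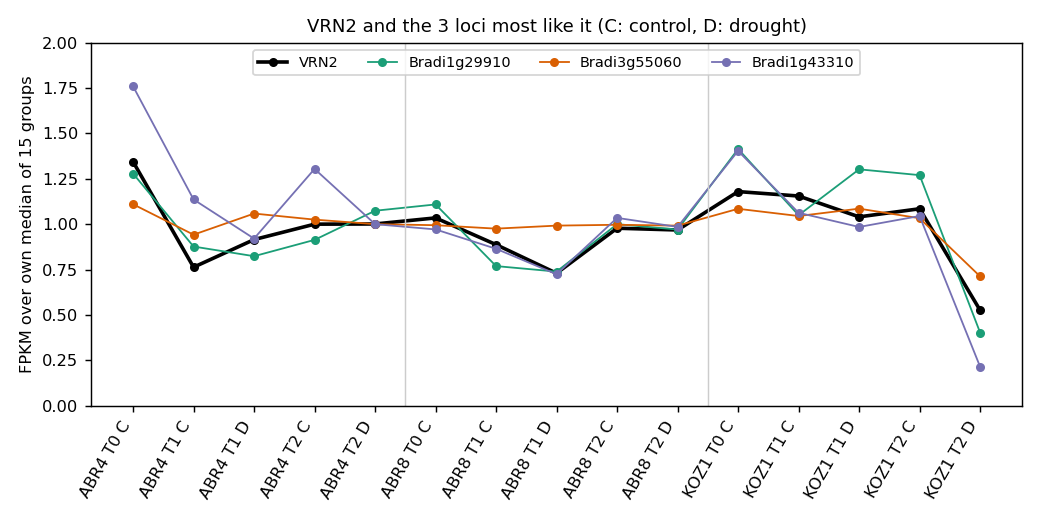
Levels of VRN2 and of the 3 loci most like it in the 15 groups, each divided by its own median over the groups. In KOZ1 T2 drought VRN2 is at 0.526 times its median and Bradi1g29910, with r = 0.918, at 0.403 times its own.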

How the data were processed

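Leaf RNA of ABR4, ABR8 and KOZ1 was sequenced in 45 libraries. Groups were taken from the sample names. Per the submitters' notes and the study's methods, the tools were Trim Galore 0.4.1 for trimming, TopHat2 2.1.1 with Bowtie2 2.2.9 for mapping to the v3.0 assembly, and Cufflinks 2.2.1 with Cuffdiff for FPKM. The deposited FPKM values are 1 per locus in each group, estimated by the authors from its 3 libraries together, with 95% limits. Pooling hides the spread between plants, and the limits carry the authors' model of it. Depth per library was not used here.

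The standard error was the distance from a value to its upper limit divided by the normal quantile of a 95% interval. Groups were compared by a z-test on ln FPKM, or on the FPKM difference if either group was at 0, with Benjamini-Hochberg adjustment over all loci. The mean of 3 controls was tested likewise. These p-values rest on a normal approximation of the authors' limits for 3 libraries per group, so single p-values are not printed, and intervals and counts of calls are given. Alternatives were other adjustments, thresholds, errors, pseudocounts, a minimum level and scalings.

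The genes named are the 4 genes, their nearest neighbours, the 3 loci most like VRN2 and MADS-box genes by RefSeq name. The 4 genes and the lists were chosen with earlier results of these data known. Pathway and marker lists by gene description could not be applied, because the gene table used here holds no descriptions, so the leaf label was not checked against markers. Python 3.11.15, numpy 2.4.6, scipy 1.17.1, pandas 2.3.3 and matplotlib 3.10.9 were used.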

Additional observations from a re-analysis of the deposited data

How the results depend on the processing

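VRN2 was called in no comparison under the alternatives run, each changed alone. Most alternatives change the test and cannot change the direction of a VRN2 difference. Of the 63 VRN2 values under another scaling or with a single control, which can, 7 reversed and none was called. With a common median 1 of 27 VRN2 intervals lay apart from 0, that of KOZ1 T2 drought at -1.16, and with the same sum 0 did. With a common median, the log2 drought difference at T2 was -0.046 in ABR4 (0.0015 as reported) and 0.013 in ABR8 (-0.015). With the same sum, ABR8 against ABR4 was 0.19 in the T2 control (-0.033) and 0.060 for the mean of controls (-0.10), and ABR8 against KOZ1 in the T2 control was 0.098 (-0.15). With 1 control in place of the mean, ABR8 against ABR4 was 0.22 at T1, and KOZ1 against ABR4 was -0.19 at T0 (0.14). The number of loci called at least once moved more. Under drought it was 2333, and 4379 with the unadjusted p, 1167 at 4-fold and 4185 with the same sum. Between days it was 1056, and 3143 with the unadjusted p, 1962 by limits that do not overlap, 520 on the difference in FPKM and 583 at 4-fold. Between genotypes it was 4595, and 7452 with the unadjusted p and 2992 at 4-fold. For differences of drought responses it was 1488, and 4115 with the unadjusted p and 2598 with the same sum. Beyond the thresholds themselves, the cause was not tested. No paired analysis was possible because the table holds 1 pooled value per group, and for the same reason no replicate could be left out.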

Other observations

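A pair of MADS-box genes in RefSeq could not be assigned to a single locus and are given as values. The interval of the gene with the synonym AGL13 holds Bradi1g72150 and Bradi1g72160. In KOZ1 at T2, Bradi1g72160 was at 25.8 FPKM in the control and 11.2 FPKM in drought. This log2 difference of -1.20 was called by the z-test, in a comparison where 8.34% of all loci tested were called. No other comparison of the loci of this pair of genes gave a call. With the same sum in each group the log2 difference was -0.55 and not called. It was also not called when the test was on the difference in FPKM, with the adjustment over all drought comparisons or at 4-fold. These alternatives were chosen after seeing the data. Bradi1g72150 was at 15.7 FPKM and 26.1 FPKM in these groups and was not called.

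The interval of VRT-2, with the synonym SVP, holds Bradi1g45806 and Bradi1g45812. The main locus of Bradi1g45806 was at 34.4 to 53.2 FPKM in ABR4, 40.3 to 46.2 FPKM in ABR8 and 8.37 to 12.3 FPKM in KOZ1. The values of KOZ1 were below the others, but the 95% limits overlapped, as in the T0 controls with 0 to 29.8 FPKM in KOZ1 and 4.08 to 64.6 FPKM in ABR4. For the mean of the controls the log2 difference of KOZ1 from ABR4 was -2.22, and that of ABR8 from KOZ1 was 2.16. Both reached an unadjusted p of 0.05 in the z-test, as did 14.9% and 20% of all loci tested in these comparisons. Neither was called after adjustment. Bradi1g45812 was at 28.3 to 33.4 FPKM in KOZ1, 38.4 to 50.6 FPKM in ABR4 and 40.1 to 55 FPKM in ABR8. Its limits in the T0 controls also overlapped, at 17.3 to 39.3 FPKM in KOZ1 and 23.0 to 53.8 FPKM in ABR4. For the mean of the controls its log2 difference was -0.48 for KOZ1 from ABR4 and 0.63 for ABR8 from KOZ1. Both also reached an unadjusted p of 0.05 in the z-test. Of the 12 tests of Bradi1g45812 between genotypes in the controls, 0 gave a call, with the shares of all loci called as given above.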
